A study of Mus musculus with 31 samples.

Results

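The respiratory chain of mitochondria passes electrons from NADH and succinate to oxygen through complexes I to IV and pumps protons, and complex V, the ATP synthase, uses the proton gradient to make ATP. Most subunits are encoded in the nucleus, translated in the cytosol and imported, while a small set, among them catalytic cores of complexes I, III and IV, is encoded by mitochondrial DNA. Neurons rely on this chain for most of the ATP that ion pumping and synaptic transmission use, and several subunits exist as isoforms that differ between tissues.

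The nuclear genes of these complexes were described here from RNA-seq of dissected thalamus, with 1 library for each of 31 adult mice aged 90 days. The members were the protein-coding genes whose symbols start with Ndufa, Ndufb, Ndufc, Ndufs, Ndufv, Uqcr, Cox4 to Cox8 or Atp5, plus Sdha to Sdhd and Cyc1, without the Ndufaf assembly factors and without Atp5s. This gave 85 members of 25497 genes in the files: 38 for complex I, 4 for complex II, 9 for complex III, 18 for complex IV and 16 for complex V. Of these, 82 passed the filter on low counts and were among the 14886 genes tested. Cox7b2, Cox8b and Cox8c did not. The offspring were 7 males and 8 females of mothers reared in social isolation (SIR), and 8 males and 8 females of control mothers. No genotype, strain or litter is given in the sources used here, so litter mates, if any, were counted as separate animals.

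Library totals ran from 13 to 25.74 M (mega) estimated counts, with a median of 23.28 M. All 12 thalamus markers listed were detected, from Prkcd at a mean of 982 TPM (transcripts-per-million, a level scaled by transcript length) down to Gbx2 at 44.2 TPM. Library numbers of all SIR animals lay below those of all controls, so housing and number range cannot be told apart. In 8 libraries (SIR male 1, SIR females 2 and 3, control males 27 and 28, control females 29, 30 and 31) the numbers stood apart from the rest. Library SIR female 5 carried Y-linked transcripts against its label and was kept under the label. Control female 31 was the shallowest library and control female 20 the richest in choroid plexus transcripts. The number of members called over both sexes is given with and without each of them.

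Promoters of 68 members were matched in the RefSeq table (build GRCm38.p6), 1 of them by a synonym, with 73 windows from 250 bases before to 50 after a transcription start. The letters GCGCA and GCGC with 1 base of any kind between them, which nuclear respiratory factor 1 (NRF1) is known to bind, were searched on both strands, since NRF1 is a known activator of respiratory chain genes. They stood in 18 of the 73 windows (24.7%), against 4.6% of all 32851 promoter windows and 8.77% of the 14610 windows of tested genes. The windows around the letters are shown for 4 members, Atp5h, Ndufa11, Ndufa8 and Ndufs6, which were also among those higher in SIR offspring, with the NRF1 letters in capitals and up to 40 bases on either side, cut off at the start site.
Atp5h (chr11:115420011-115420100, minus strand): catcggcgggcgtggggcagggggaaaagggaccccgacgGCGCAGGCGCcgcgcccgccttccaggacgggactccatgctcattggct
Ndufa11 (chr17:56717662-56717751, plus strand): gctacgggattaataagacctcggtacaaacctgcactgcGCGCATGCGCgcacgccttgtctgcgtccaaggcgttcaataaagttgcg
Ndufa8 (chr2:36049339-36049408, minus strand): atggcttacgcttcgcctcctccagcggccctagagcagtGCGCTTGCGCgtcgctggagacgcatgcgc
Ndufs6 (chr13:73328483-73328538, minus strand): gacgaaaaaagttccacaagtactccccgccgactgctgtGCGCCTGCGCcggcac

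The first base of the letters lay 141 bases before the start of Atp5h, 60 before that of Ndufa11, 30 before that of Ndufa8 and 16 before that of Ndufs6. Letters of 3 other factors tied to mitochondrial genes were searched in the same way. The YY1 letters AAGATGGC stood in 13.7% of members' windows and 3.87% of those of tested genes. The ETS letters ACTTCCGG, which GABP binds, stood in 6.8% and 6.97%, and the ERR letters TCAAGGTCA in 2.7% and 0.3%. Matches of different factors overlapped in 0 cases. A match is a description of letters, not of binding.

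In level, the members took between 2.85% and 4.0% of all TPM of a library, with a median of 3.65%. The highest mean was that of Atp5b, the catalytic beta subunit of ATP synthase, at 2110 TPM, followed by Cox4i1, the ubiquitous isoform of cytochrome c oxidase subunit 4, at 1450 TPM. In complex I the highest was Ndufa4 at 1160 ± 79.6 TPM (SD, n = 31 libraries), a subunit now placed in complex IV although its symbol puts it here, and the lowest its paralogue Ndufa4l2 at 7.66 TPM (4.78 to 12.6). In complex III the means ran from 190 TPM for Uqcrfs1, the Rieske iron-sulfur protein, to 745 TPM for Uqcrh, the hinge protein. In complex II they ran from 119 TPM for the membrane anchor Sdhd to 373 TPM for the flavoprotein Sdha.

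Most members were read from 1 transcript: in 53 of them a single transcript took over 90% of the gene's counts, and the median share of the top transcript was 95.9%. In 31 others no transcript did, down to top shares of 33.5% for Ndufs4 and 34.1% for Ndufab1, and Cox8c had no counts. Protein-coding transcripts held under 50% of the counts in 2 members, Ndufa5 (35.7%) and Ndufs4 (36.0%), and 52.5% in Atp5j.

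The tissue isoforms of complex IV separated by far more than the spread between libraries. Cox4i1 never fell below 1060 TPM, while Cox4i2, known as a lung isoform, stayed between 5.70 and 14.9 TPM. Cox6a1 averaged 1150 TPM and its heart and muscle counterpart Cox6a2 59.7 TPM. Cox6b1 averaged 747 TPM and the testis isoform Cox6b2 8.06 TPM. Cox7a2 averaged 405 TPM and the muscle isoform Cox7a1 19.4 TPM. Cox8a averaged 1080 TPM, Cox8b 1.83 TPM, and Cox8c had 0 counts in each of the 31 libraries. The 3 genes of ATP synthase subunit c, which differ in their targeting peptides and encode the same mature protein, were all well expressed: Atp5g3 averaged 779 TPM, Atp5g1 504 TPM and Atp5g2 216 TPM. In these families every library of the ubiquitous isoform lay above every library of the tissue isoform. For Atp5g1, Atp5g2 and Atp5g3 the ranges did not overlap either: 431 to 564, 177 to 244 and 587 to 845 TPM.

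Summed by complex, levels were lowest in control females and highest in SIR males for complexes I, III, IV and V, with large overlap between control males and SIR females. The sum of complex I averaged 11430 ± 1012 TPM in control females (SD, n = 8), 12160 ± 512 in SIR females (n = 8), 12216 ± 617 in control males (n = 8) and 12914 ± 285 in SIR males (n = 7). The sum of complex V averaged 9905 ± 772, 10513 ± 395, 10518 ± 371 and 11103 ± 377 TPM in the same order. For complex IV the means were 8496 ± 662, 8884 ± 398, 8812 ± 518 and 9596 ± 315 TPM. Complex III averaged 3373 ± 356, 3555 ± 122, 3533 ± 196 and 3747 ± 116 TPM. Complex II stayed level, at 859 ± 24, 872 ± 31, 894 ± 34 and 893 ± 32 TPM. SIR and control libraries of the same sex overlapped in all 5 complexes: in males, complex I ran from 12583 to 13372 TPM with SIR and from 11045 to 13071 TPM in controls. Control female 31 was the lowest of its group in complexes I, III, IV and V, at 9326, 2574, 7440 and 8299 TPM. SIR female 5, which carried Y-linked transcripts, was the highest SIR female in the same complexes, at 12938, 3770, 9484 and 11112 TPM. Group means of the sums were not taken without these libraries. In bulk tissue, fewer cells of a type and less RNA per cell cannot be told apart.

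**Figure D1:**
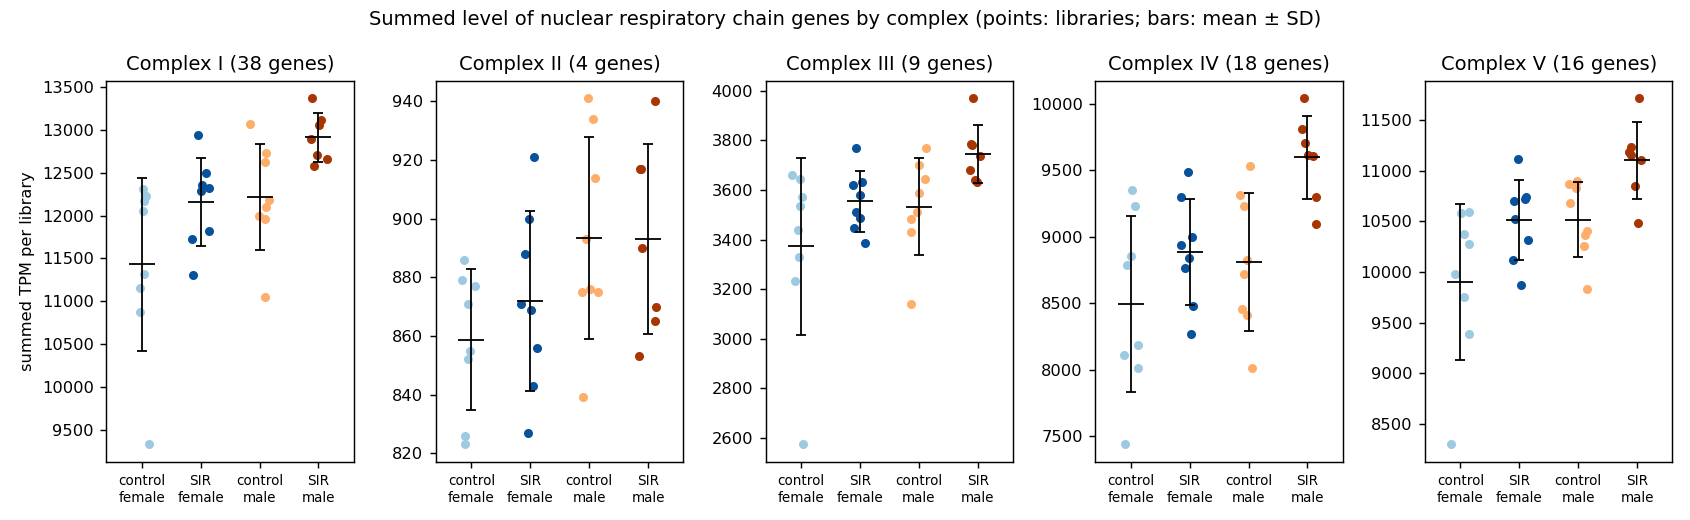
Summed TPM of the nuclear genes of each complex in each library (points), by group, with mean ± SD as bars; the axes do not start at 0. SIR males lie highest in complexes I, III, IV and V, at a mean of 12914 TPM for complex I against 11430 TPM in control females, and complex II shows no such order.

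The members varied together. The mean deviation of the 82 tested members from their own averages (log2 CPM, counts-per-million on TMM-scaled totals) was taken per library. It ran from -0.256 in control female 31 to 0.206 in SIR male 15. The 4 highest libraries were SIR males 15, 1, 14 and 8, and the 3 lowest were control females 31, 29 and 20. Group means were -0.085 ± 0.09 in control females, -0.016 ± 0.081 in control males, 0.006 ± 0.074 in SIR females and 0.108 ± 0.092 in SIR males (SD). Complex II departed from this in control female 31, the shallowest library, where the complex III score was -0.386 and the complex II score 0.075. In SIR males 15, 1 and 14 the complex II scores were 0.127, 0.1 and 0.123, and in control females 29 and 20 -0.044 and -0.071. Of the 82 members, 46 had their lowest library in control female 31 and 14 in control female 20, and 66 had their highest library among the SIR males. Around group means, the coefficient of variation was 2.52% for Sdha, 3.89% for Uqcrc2 and 4.07% for Sdhb, with a median of 7.91% over the tested members, and it reached 23.5% for the low isoform Cox4i2.

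Whether maternal isolation went with a different level of these genes was asked first over both sexes. In SIR offspring 13 of the 82 members rose and 0 fell, by small amounts of 1.09 to 1.17-fold (edgeR quasi-likelihood test, adjusted p of at most 0.05 over all genes). That is 15.9% of the members, against 1.76% of all tested genes called higher and 2.79% called lower. The 13 were spread over 3 complexes: 8 of 38 in complex I, 2 of 15 tested in complex IV and 3 of 16 in complex V, with 0 of 9 in complex III and 0 of 4 in complex II. The fold change was positive for 81 of the 82, with a median log2 fold change of 0.102 against -0.006 over all tested genes, and 57 had an unadjusted p under 0.05. By complex the median log2 fold change was 0.109 for I, 0.035 for II, 0.104 for III, 0.116 for IV and 0.095 for V.

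Atp5h, subunit d in the peripheral stalk of ATP synthase (chromosome 11), had the smallest adjusted p of the members. It ran from 134 to 203 CPM in controls with a median of 182, and from 176 to 236 CPM in SIR offspring with a median of 201. The ranges overlapped, and 13 of 15 SIR libraries lay above the control median. The log2 fold change was 0.17 ± 0.04 (SE), or 1.13-fold, with an adjusted p of 0.0261. The 2 other called ATP synthase genes encode small subunits of the rotating central stalk. Atp5d, the delta subunit (chromosome 10), had a median of 194 CPM in controls (151 to 215) and 211 CPM in SIR offspring (187 to 248), with a log2 fold change of 0.15 ± 0.04 and an adjusted p of 0.0319. Atp5e, the epsilon subunit (chromosome 2), had a median of 51.7 CPM in controls (42.7 to 59.9) and 56.2 CPM in SIR offspring (47.5 to 62.3), with a log2 fold change of 0.16 ± 0.04 and an adjusted p of 0.0374. The larger subunits of the same catalytic head did not pass the test, with a log2 fold change of 0.06 for Atp5b and 0.04 for Atp5a1.

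Among complex I genes, Ndufs6 showed the largest called change. It encodes a zinc-binding accessory subunit of the module that oxidises NADH (chromosome 13). Its control libraries ran from 25.2 to 50.8 CPM with a median of 43.6, and its SIR libraries from 42.9 to 62.3 CPM with a median of 49.8. Here 7 SIR libraries lay above every control and 7 controls below every SIR library. The log2 fold change was 0.23 ± 0.06 (1.17-fold, adjusted p = 0.0287). Ndufv3, an accessory subunit of the same module (chromosome 17), had a median of 58.0 CPM in controls (48.9 to 69.8) and 65.7 CPM in SIR offspring (56.1 to 82.5), a log2 fold change of 0.17 ± 0.05 and an adjusted p of 0.0294. Ndufa11, an accessory subunit of the membrane arm, also on chromosome 17, rose by 0.18 ± 0.05 (log2, adjusted p = 0.0447). Its medians were 63.6 CPM in controls and 71.4 CPM in SIR offspring, with 14 of 15 SIR libraries above the control median.

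The other called accessory subunits moved less. Ndufa13, also known as GRIM-19, had medians of 129 CPM in controls and 145 CPM in SIR offspring (log2 fold change 0.15, adjusted p = 0.0387). Ndufb8, a membrane arm subunit, had medians of 156 and 167 CPM (0.13, adjusted p = 0.0383). Ndufa8, on the intermembrane space side, ran from 66.6 to 101 CPM in controls and from 85.1 to 114 CPM in SIR offspring (0.13, adjusted p = 0.0476). In each of the 3, at least 12 of the 15 SIR libraries lay above the control median. The 7 nuclear core subunits, which carry the flavin and the iron-sulfur clusters or bind ubiquinone, held 2 of the called genes. Ndufs8 had medians of 77.7 CPM in controls and 88.0 CPM in SIR offspring (0.15, adjusted p = 0.0489), and Ndufs3 91.0 and 95.4 CPM (0.13, adjusted p = 0.0476). Ndufs1, the largest core subunit, was the 1 tested member with a negative value, at -0.03 ± 0.04 (adjusted p = 0.553), with medians of 179 CPM in controls and 175 CPM in SIR offspring.

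In complex IV, Cox5b and Cox4i1 rose. Cox5b, a zinc-binding subunit on the matrix side (chromosome 1), ran from 172 to 236 CPM in controls with a median of 191, and from 182 to 250 CPM in SIR offspring with a median of 214. Its log2 fold change was 0.13 ± 0.04 (adjusted p = 0.0383), and 14 of 15 SIR libraries lay above the control median. Cox4i1 (chromosome 8) had medians of 415 CPM in controls (341 to 463) and 439 CPM in SIR offspring (397 to 505), and lay just inside the threshold at an adjusted p of 0.0496. Of the low isoforms, Cox6a2 had a log2 fold change of 0.27 ± 0.10 (adjusted p = 0.095), and Ndufa4l2 of complex I one of 0.28 ± 0.09 (adjusted p = 0.0783). Both values exceeded those of all called members without passing the test. In complex III the highest values were those of Uqcrq and Uqcr11, small membrane subunits, at 0.17 each (adjusted p = 0.0566 and 0.128). The core protein Uqcrc2 was at 0.02. In complex II only the iron-sulfur subunit Sdhb came near the threshold (0.08 ± 0.02, adjusted p = 0.0596), and Sdha, Sdhc and Sdhd lay between 0.01 and 0.04.

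**Figure D2:**
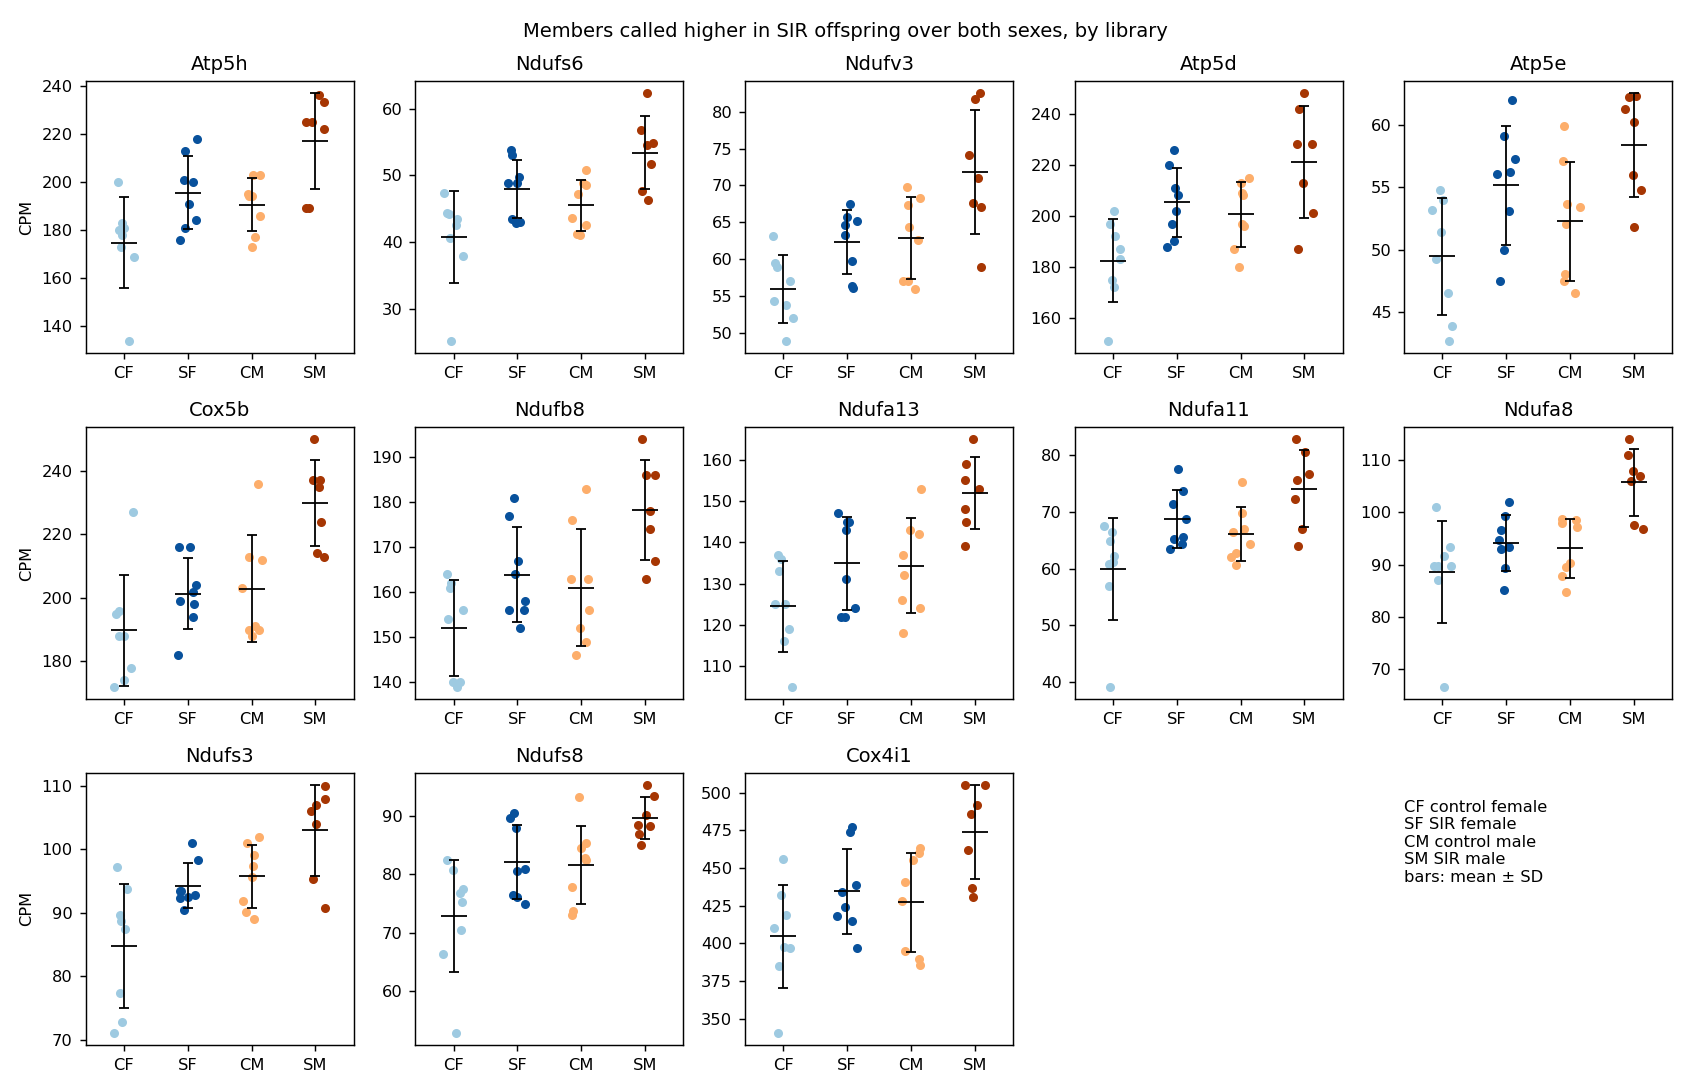
CPM in each library (points) of the 13 members called higher in SIR offspring over both sexes, by group, with mean ± SD as bars; the axes do not start at 0. In each panel the SIR libraries of a sex lie higher on average than the controls of that sex and their ranges overlap; 10 of the 13 have their lowest library in control female 31 and 11 their highest in SIR male 1.

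**Figure D3:**
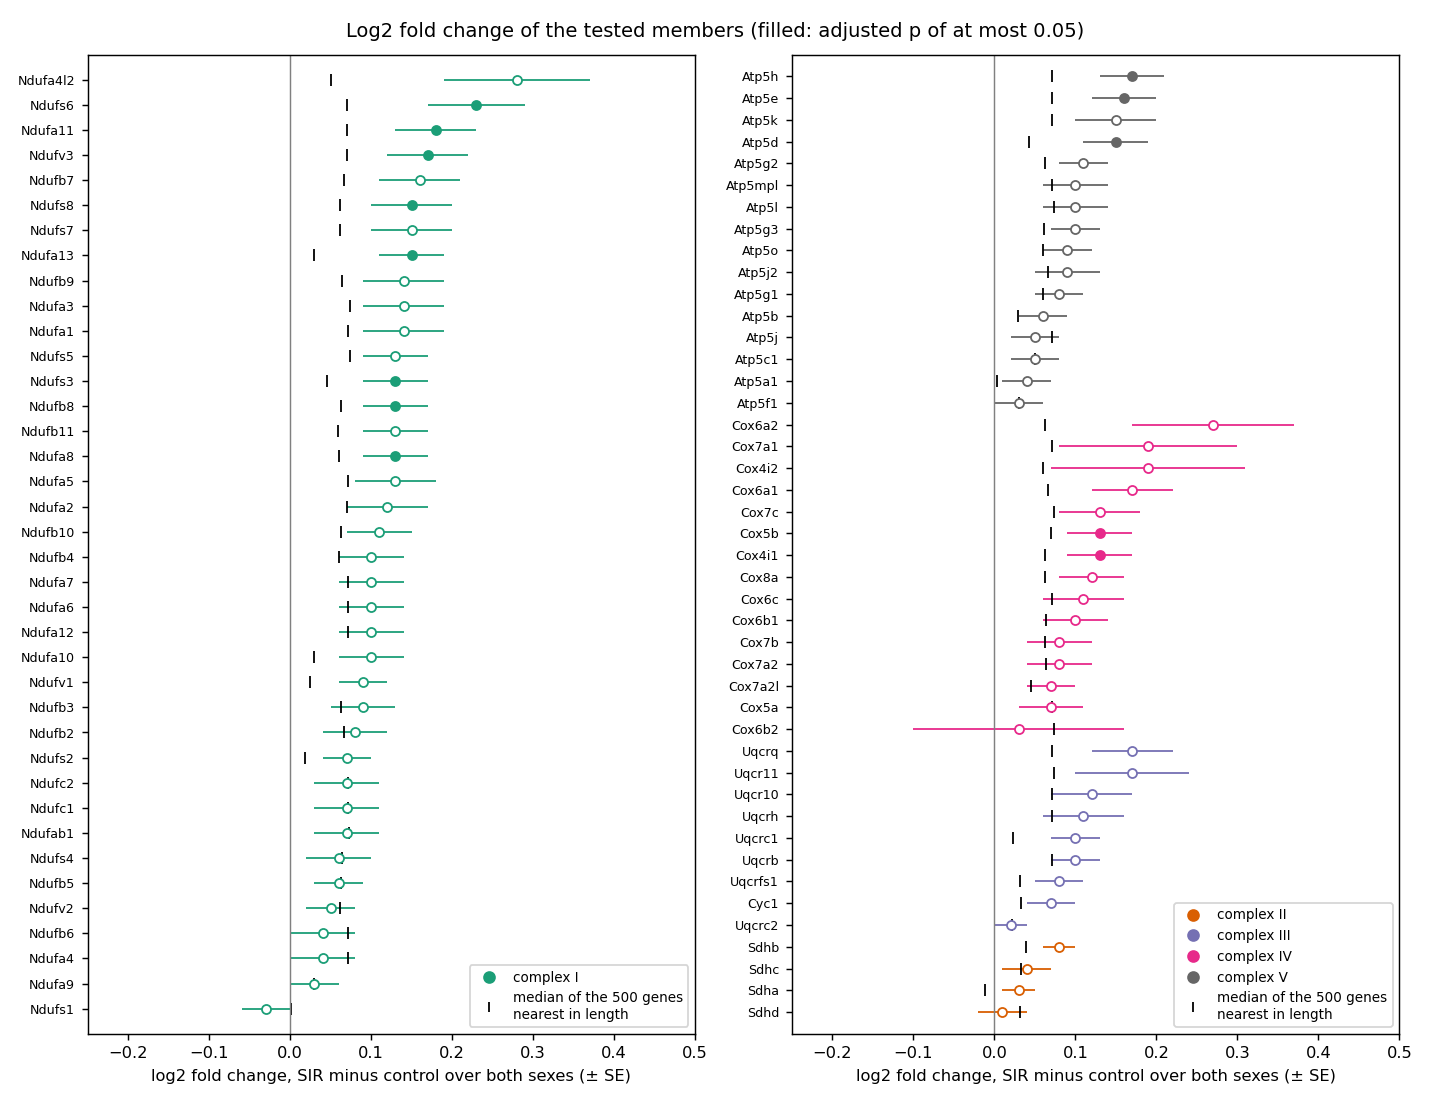
Log2 fold change (SIR minus control over both sexes, ± SE) of each of the 82 tested members, by complex; filled points have an adjusted p of at most 0.05, and the black tick is the median of the 500 other tested genes nearest in transcript length. Points lie to the right of 0 in 81 of 82 members and to the right of their own tick in 69.

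The count of 13 rested on single libraries, although the median did not: with each library left out in turn it ran from 0.089 to 0.119. Of the 13, Atp5h stayed called in each of the 31 fits with 1 library left out, Ndufs6 in 29, Ndufv3 in 26 and Atp5d in 25, and the other 9 in 10 to 18. The number called was 1 without SIR female 5 or without control male 25. It was 2 without SIR female 3, SIR male 15 or control female 29, and 3 without control male 21. It was 4 without SIR male 1, SIR male 8, SIR female 10, control male 19 or control female 30. It was 5 without control male 22, 6 without SIR female 2, 7 without SIR female 12, and 8 without SIR male 6 or the shallow control female 31. It was 21 without SIR male 4 or control male 27, 22 without SIR female 9 and 26 without control female 18. The count over all genes moved too. With all libraries 262 genes were called higher, and with 1 left out from 79 (control male 25) to 452 (control female 20). That count was 108 without SIR female 5 and 389 without control female 18. Without the 8 libraries with numbers apart, 0 were called (47 with an unadjusted p under 0.05) and the median was 0.096. In that fit 0 of all 14918 tested genes were called in either direction.

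Transcripts of these genes are short: the median effective length was 489 bases (197 to 2679) against 2405 over all tested genes, and the median GC content 52.3% against 50.6%. Over all genes, fold changes varied with both properties. Among other tested genes under 500 bases, 22 of 290 (7.59%) were higher in SIR offspring and 0 lower, with a median log2 fold change of 0.084. Each member was therefore set beside the 500 other tested genes nearest in length. The median of these references was 0.064, and 69 of 82 members lay above their own, by a median of 0.041. Against the 500 genes nearest in both length and GC content, 75 of 82 lay above, by a median of 0.04. The excess over the length reference was 0.054 for complex I, 0.024 for II, 0.047 for III, 0.054 for IV and 0.033 for V. Complex II, with a median effective length of 1134 bases against 472 for complex I, also had the lower length reference, 0.032.

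GC content ordered the members more closely than length. Of the 25 members with 55% GC or more, 8 were called and the median log2 fold change was 0.145. Of the 28 with 50% to 55%, 5 were called with a median of 0.101. Of the 29 under 50%, 0 were called by edgeR (11 with an unadjusted p under 0.05). Their median was 0.073, next to a length reference of 0.071. Against the genes nearest in both length and GC content the reference was 0.036. Of these 29 members, 26 lay above it, by a median of 0.03. That excess was 0.039 for members with 50% to 55% GC and 0.05 for those with 55% or more. Among other genes under 1000 bases the log2 fold changes followed the same GC order, with medians of 0.099, 0.075 and 0.021. In these classes 8.11%, 6.21% and 0.826% were called higher. Across the 82 members Spearman's rho of the log2 fold change was 0.62 with GC content and -0.34 with length, and across all 14886 genes 0.42 and -0.32. These are descriptions across genes measured in the same libraries, and genes are not independent replicates.

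**Figure D4:**
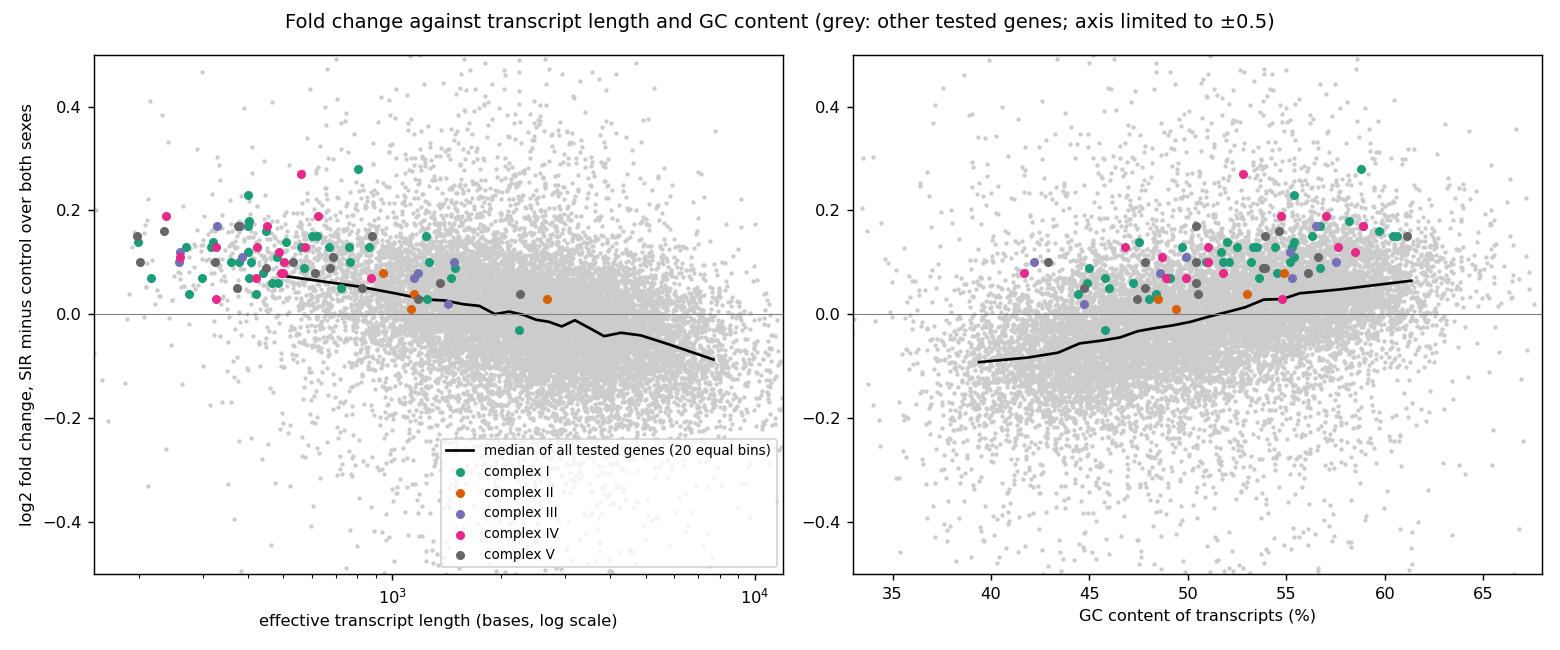
Log2 fold change (SIR minus control over both sexes) against effective transcript length (log axis) and GC content for members (coloured by complex) and all other tested genes (grey, drawn within ±0.5), with the median of all tested genes in 20 equal bins as a line. Members sit at the short end, mostly above the line; the line falls with length and climbs with GC content.

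The trend with length differed between libraries and between groups. The slope of log2 CPM deviations on log2 effective length, over all tested genes, averaged 0.029 ± 0.026 in control females, 0.005 ± 0.022 in control males, 0.001 ± 0.016 in SIR females and -0.039 ± 0.025 in SIR males (SD). Control female 31, lowest in member score, had the highest slope (0.075), and SIR male 1, ranked 2 in member score, the lowest (-0.08). Other libraries did not pair in this way: SIR male 14, ranked 3 in score, had a slope of 0.001, and SIR male 4, ranked 17, one of -0.041. With the length trend of each library removed, 0 members were called (edgeR; 25 with an unadjusted p under 0.05), the median log2 fold change was 0.043 and 67 of 82 were positive. With the GC trend removed, 2 were called (Atp5h and Uqcrb), with a median of 0.096. With both removed, 0 were called (9 with an unadjusted p under 0.05), the median was 0.035 and 73 of 82 were positive. In that last fit 0 genes in all were called higher and 1 lower. Removing a trend also removes any part of the housing effect that follows length or GC content, so what the trends share with housing cannot be told apart here. After removal of both trends Atp5h had a log2 fold change of 0.10 (adjusted p = 0.223) and Ndufs6 one of 0.13 (adjusted p = 0.275).

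**Figure D5:**
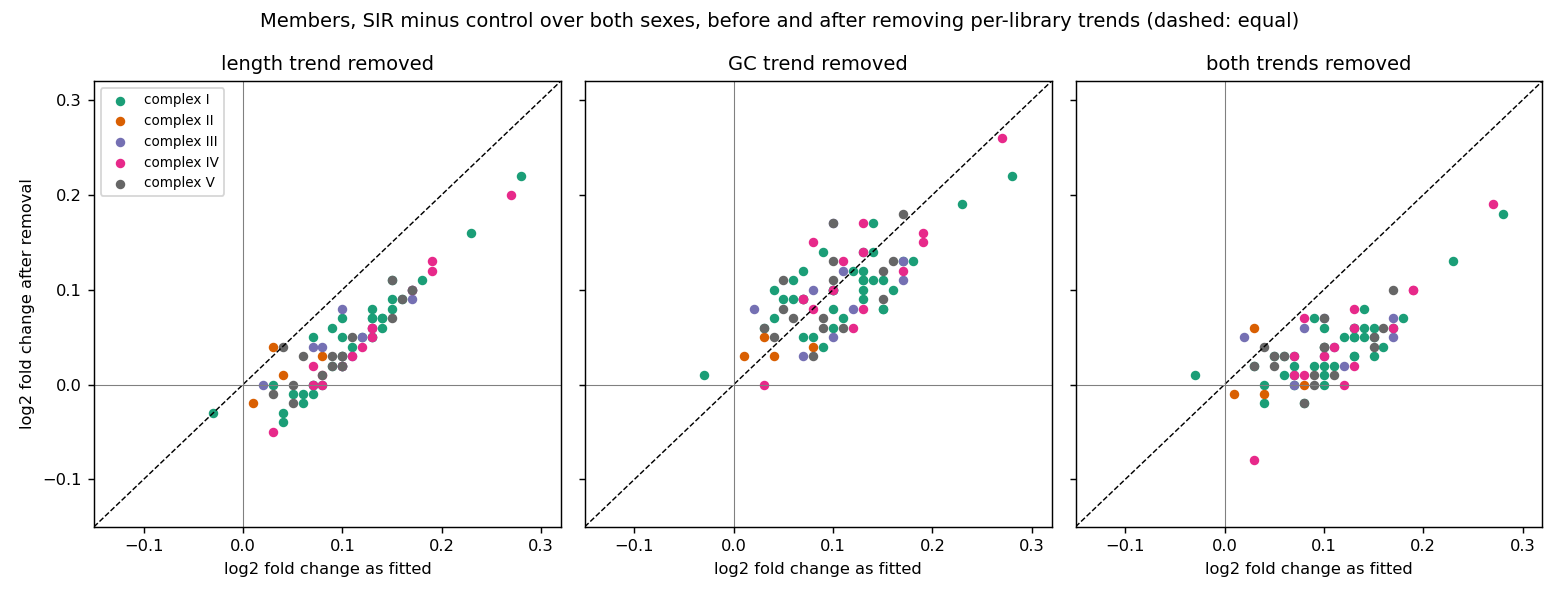
Log2 fold change (SIR minus control over both sexes) of the 82 members as fitted (x) and after removing each library's trend with transcript length, with GC content, or with both (y); the dashed line marks equal values. Most points drop below the line when the length trend is removed, where the median goes from 0.102 to 0.043, and stay around it when the GC trend alone is removed (0.096).

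Taken by sex, the members leaned the same way in both, and no member passed the test in either. In males 0 members were called by edgeR (0.282% of all genes called higher and 1.05% lower), 45 had an unadjusted p under 0.05, and the median log2 fold change was 0.126 with 81 of 82 positive. The smallest adjusted p in males were those of Cox5b (0.18 ± 0.05, adjusted p = 0.0702), Ndufa8 (0.18 ± 0.06, adjusted p = 0.0851) and Atp5g2 (0.15 ± 0.05, adjusted p = 0.0923). Cox5b ran from 213 to 250 CPM in SIR males with a median of 235, and from 188 to 236 CPM in control males with a median of 197. DESeq2 called 9 members higher in males, limma-voom 2 (Atp5g2 and Ndufa8) and limma-trend on TPM 0. Without the 8 libraries with numbers apart 6 were called, and without the 2 shallowest 5. Leaving out control male 27, control male 28 or control female 31 gave 2 calls each (135, 74 and 81 of all genes called higher), and control female 18 gave 1 (43 of all genes). Over all genes, edgeR called 42 higher with SIR in males, DESeq2 216, limma-voom 174 and limma-trend 9. Without the 8 libraries edgeR called 167 of all genes higher, and without the 2 shallowest 172.

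In females 0 members were called by edgeR (2.38% of all genes called higher and 2.24% lower), by DESeq2 and by both limma fits. There 19 had an unadjusted p under 0.05, and the median was 0.077 with 77 of 82 positive. The smallest adjusted p in females were those of Atp5d (0.17 ± 0.06, adjusted p = 0.0822), Ndufa1, an accessory subunit (0.21 ± 0.07, adjusted p = 0.0905), and Ndufs3 (0.15 ± 0.05, adjusted p = 0.0961). Atp5d ran from 188 to 226 CPM in SIR females with a median of 205, and from 151 to 202 CPM in control females with a median of 185. Without control female 18, 2 members were called in females, with 351 of all genes called higher. Without SIR female 5, which carried Y-linked transcripts, 0 were called and 13 had an unadjusted p under 0.05.

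The male and female effects of SIR were compared directly by an interaction term. It was past the threshold for 0 of 82 members by edgeR, DESeq2 and both limma fits (2.83% of all genes in either direction by edgeR), with 1 unadjusted p under 0.05. The median difference, male minus female effect, was 0.034 on the log2 scale against 0.004 over all genes. It did not exceed that of the genes nearest in length, whose reference was 0.043. Of the 82 members, 39 lay above their own length reference, with a median excess of -0.003. Against the genes nearest in both length and GC content, 41 lay above, with a median excess of 0.001. The smallest adjusted p was that of Sdhc, a membrane anchor of complex II, at 0.146: its log2 fold change was 0.14 in males and -0.05 in females, a difference of 0.18 ± 0.07. By complex the median difference was 0.084 for complex IV and between 0.019 and 0.034 for the others.

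Between the sexes, over both housings, 16 of the 82 members were higher in males and 0 lower (edgeR; 19.5%, against 4.44% of all genes called higher in males and 5.65% lower), with a median log2 difference of 0.088 and 80 positive. Among the 16 were 5 of the 7 core genes of complex I (Ndufs3, Ndufs7, Ndufs8, Ndufv1 and Ndufv2). They were joined by the complex I accessory genes Ndufv3, Ndufa13, Ndufb5 and Ndufb9, by Uqcrc1 of complex III, by Cox5b and Cox7a2l, and by Atp5g2, Atp5g3, Atp5h and Atp5o of ATP synthase. Cox7a2l, which links complexes III and IV in supercomplexes, had the smallest adjusted p (0.12 ± 0.03, adjusted p = 0.00366). Its level ran from 115 to 131 CPM in control females (median 125), 119 to 135 in SIR females (127), 126 to 141 in control males (130) and 136 to 156 in SIR males (139). SIR males lay above all females, and control males overlapped them. Ndufv3 differed by 0.19 ± 0.05 (adjusted p = 0.0101) and Ndufs7 by 0.17 ± 0.05 (adjusted p = 0.0164).

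Other genes under 1000 bases with 55% GC or more were higher in males in 13.4% of cases. So were 30 of 80 cytosolic ribosomal protein genes (median 0.115), 13 of 38 proteasome genes and 5 of 17 glycolytic gene models, with 0 lower in each list. Of 78 mitochondrial ribosomal protein genes 3 were higher in males. Oligodendrocyte markers were lower in males in 6 of 12 (median -0.185) and choroid plexus markers in 5 of 10 (-1.65), with 0 higher. With the length trend removed 5 members remained called (Cox7a2l, Ndufs3, Ndufs7, Ndufv3 and Uqcrc1), and with both trends removed only Cox7a2l (0.08, adjusted p = 0.012). Of all 14886 genes, 515 were called higher in males with the length trend removed and 325 with both removed. Without the 8 libraries with numbers apart 0 were called (edgeR; 12 with an unadjusted p under 0.05), and without the 2 shallowest 9. In those fits 193 and 601 of all genes were called higher in males, against 661 with all libraries. Leaving out SIR female 7, 9 or 11 or control male 27 left 9 members called each (518, 535, 449 and 500 of all genes), and control male 16 left 10 (554 of all genes). Without SIR female 5, which carried Y-linked transcripts, 23 members were called (674 of all genes), as without control male 19 (759 of all genes).

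The 13 subunits encoded by mitochondrial DNA gave no calls. Over both sexes 0 of 13 were called in either direction by edgeR, 3 were positive and the median log2 fold change was -0.028. In males 7 of 13 were positive with a median of 0.003, and in females 0 of 13 with a median of -0.115. The male effect minus the female effect was positive for 13 of 13 (median 0.131), with 0 called by edgeR. Between the sexes the median was -0.134, lower in males. Their summed level varied between libraries from 102000 to 230000 TPM, and their median GC content was 37.1%. The most abundant, mt-Co1 of complex IV, had a log2 fold change of 0.04 ± 0.09.

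Lists of other mitochondrial genes had smaller medians than the members. Of 48 tested assembly factors 2 rose over both sexes and 0 fell, with a median of 0.020: Ndufaf3 of complex I (0.18 ± 0.04, adjusted p = 0.0214) and Uqcc2 of complex III (0.23 ± 0.06, adjusted p = 0.0322). Of 18 TCA cycle genes 0 were called by edgeR, with a median of 0.022 at a median length of 1800 bases. Of 24 import genes 3 rose (Tomm6, Timm22 and Timm50) and the median was 0.029. Of 78 mitochondrial ribosomal protein genes 3 rose with a median of 0.060, and of 19 regulators of mitochondrial biogenesis 0 were called with a median of -0.060. The electron carrier Cycs was at 0.03 and the ATP synthase inhibitor Atpif1 at 0.08, both uncalled.

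Genes outside the mitochondrion were also among those that rose. Of 80 cytosolic ribosomal protein genes, with a median length of 470 bases, 19 rose and 0 fell, with a median of 0.110. Of 38 proteasome genes 5 rose with a median of 0.067. Of 17 glycolytic gene models 4 rose with a median of 0.083: Gapdh (0.13), Eno1 (0.12), Aldoa (0.11) and Gpi1 (0.10), at lengths of 1311 to 1999 bases and GC contents of 54.8% to 57.3%.

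Cell type markers were read beside these results. Neuron markers had a median of -0.006 over both sexes, with 1 of 14 higher, and astrocyte markers one of 0.055 with 0 of 10 called. Microglia markers had a median of 0.056 with 1 of 10 higher, and in males 10 of 10 were positive (median 0.138, 0 called). Endothelial and mural markers had a median of 0.242 in males (11 of 12 positive, 0 called) and -0.016 in females (2 of 12 lower). Thalamus markers had a median of -0.158 in males (1 of 12 lower) and 0.079 in females (3 of 12 higher). Midbrain monoamine markers were lower over both sexes in 2 of 6 (median -0.914), with 3 of 6 lower in females and 0 called in males. Oligodendrocyte precursor, ependyma and hypothalamus markers had medians over both sexes of -0.020, -0.015 and 0.045, with 1 of 8, 0 of 6 and 0 of 8 called. The summed hypothalamus level had a median of 193 TPM in control females (68.6 to 1500) and 1300 in control males (160 to 1730). In SIR females it was 1090 (246 to 1700) and in SIR males 1160 (38.7 to 1980). Between the sexes 8 of 8 hypothalamus markers were positive (higher in males, median 0.689, 0 called). Oligodendrocyte markers went in opposite directions by sex, with a median of 0.199 in males (2 of 12 higher) and -0.256 in females (6 of 12 lower), while the members' medians were positive in both. Choroid plexus markers were lower with SIR in 2 of 10 (median -1.08). Their summed level ran from 20.1 to 3460 TPM in control females, 18.1 to 101 in control males, 18.4 to 485 in SIR females and 13.8 to 23.9 in SIR males, and none of the 10 was at 0 in all libraries. The 3460 TPM were those of control female 20, and without it 18 members were called over both sexes in place of 13. Beyond that, the part of these markers in the members' differences was not tested.

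Members with and without the NRF1 letters had like values. Of the 17 tested members with them, 4 were called over both sexes with a median log2 fold change of 0.11, and of the 49 without them 8 were called with a median of 0.10.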

How the data were processed

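The members and the gene lists were chosen with earlier results of these data known. Per the labels' protocols, polyadenylated RNA was made into stranded libraries. Per the submitters' processing notes, the authors used FastQC and kallisto and the build GRCm39; versions and use of strand are not given in the sources used here. Overlapping and antisense genes are therefore uncertain. Per the file headers, the deposited tables hold estimated counts, TPM and effective lengths for 105878 transcripts. Of these, 104949 (99.12%) matched GENCODE M21 (build GRCm38, used for names, chromosomes, lengths and GC content); the rest, 0.69% to 0.76% of a library's counts, were left out. Reads of near-identical pseudogene copies may be split with members.

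Estimated counts were summed per gene, rounded and fitted over 31 libraries with edgeR 4.0.16 in R 4.3.3 (filterByExpr, TMM, 4 group means, robust quasi-likelihood), with Benjamini-Hochberg adjustment over 14886 genes. The comparison over both sexes is the mean of the male and female differences and shares their libraries. Levels between genes are TPM deposited by the authors, and differences are CPM. P-values measure only the spread between these animals. Code was tested on simulated data. Alternatives used DESeq2 1.42.0, limma 3.58.1, other scalings and filters, per-library loess trends with length and GC content (span 0.5), and libraries left out. Named were members called in a comparison (up to 12 each), extremes of level and fold change, and isoform families; Atp5a1, Atp5j, Ndufa1, Ndufa5, Ndufab1, Ndufb5, Ndufb9, Ndufs4, Uqcrq, Uqcr11, Uqcrb and the list genes outside that rule were chosen after their values were seen.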

Additional observations from a re-analysis of the deposited data

Results flagged for a closer look

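Within groups, 192 sets of 7 or 8 libraries were searched for a library far from the others (gap to the nearest library over the range, Dixon's critical value of 0.568 for 7 and 0.526 for 8), and 16 had one; chance gives about 5%. Control female 31, the shallowest library, was the one in 8 of the 16. It was lowest of the control females for the summed level of complex III at 2574 TPM (next 3233 TPM), and for Atp5g3 at 168 CPM (next 197), Atp5h at 134 CPM (next 169), Ndufa8 at 66.6 CPM (next 87.1) and Ndufv1 at 129 CPM (next 153). It was also lowest for Ndufa11 at 39.2 CPM (next 56.9) and Ndufs6 at 25.2 CPM (next 37.9), and highest for Sdhd at 84.6 CPM (next 70.4).

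Control female 20 was lowest of its group for Cox7b at 98.2 CPM (next 117), Ndufa4 at 137 CPM (next 158) and Ndufs1 at 150 CPM (next 176). Control female 18 was highest for Atp5g1 at 172 CPM (next 159) and Cox5b at 227 CPM (next 196). Control male 16 was highest of its group for Cox6a2 at 23.2 CPM (next 18 CPM). Among SIR females, Ndufs1 was lowest in library 2 at 161 CPM (next 173), and Uqcrfs1 was highest in library 10 at 125 CPM (next 117).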

How the results depend on the processing

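The 13 members called over both sexes became 26 with upper-quartile scaling, 7 with no filter, 20 with a minimum of 1 CPM in 15 libraries, 32 with DESeq2, 3 with limma-trend on TPM, 2 with the GC trend removed, 0 with the length trend or both trends removed, 0 without the 8 libraries with numbers apart, 1 without the library with Y-linked transcripts, and 34 at an adjusted p of at most 0.1. With each library left out they ran from 1 to 26. The 262 of all genes called higher over both sexes became 446 with upper-quartile scaling, 511 with DESeq2 and 595 at an adjusted p of at most 0.1. They became 170 with no filter, 352 with a minimum of 1 CPM in 15 libraries and 43 with limma-trend. With the GC trend removed they were 51, with the length trend removed 36, with both removed 0, and without the 8 libraries 0. The 0 called in males became 1 with upper-quartile scaling, 9 with DESeq2, 2 with limma-voom, 6 without the 8 libraries, 5 without the 2 shallowest and 3 at 0.1 (0 to 2 with each library left out). In the same order, the 42 of all genes called higher with SIR in males became 110, 216, 174, 167, 172 and 212. The 0 in females became 3 at 0.1 (0 to 2 left out), where the 355 of all genes called higher became 626. The 16 between the sexes became 10 with no filter, 8 with limma-trend, 5 with the length trend removed, 1 with both trends removed, 0 without the 8 libraries, 9 without the 2 shallowest and 30 at 0.1 (9 to 23 left out). In the same order, the 661 of all genes called higher in males became 507, 218, 515, 325, 193, 601 and 1120. With 1 library left out they ran from 449 (SIR female 11) to 1036 (control female 20). The removal of both trends together was chosen after seeing the data; the causes of these changes were not tested. The median over both sexes stayed positive, between 0.035 and 0.119. No paired analysis was possible because the labels number the libraries 1 to 31 with no number shared between groups.

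Over both sexes 10 named members, none of them called, changed sign (log2). With both trends removed these were Atp5g1 (-0.020), Cox6b2 (-0.080), Cox8a (-0.00099), Ndufa4 (-0.0015), Ndufs1 (0.0099), Sdhc (-0.010) and Sdhd (-0.015). With the length trend removed they were Cox6b2 (-0.054), Ndufa4 (-0.040), Ndufv2 (-0.0070), Sdhd (-0.025) and Uqcrc2 (-0.0042), and with the GC trend removed Cox6b2 (-0.0047) and Ndufs1 (0.014). With limma-trend they were Sdha (-0.0019), Sdhc (-0.0069), Sdhd (-0.0058) and Uqcrc2 (-0.025). Cox6b2 also did so without SIR male 15 (-0.030), control female 24 (-0.016) or control male 27 (-0.0082), and ran from -0.030 to 0.087 with each library left out.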
